A study of Danio rerio with 2 samples.

Results

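Within a molecular subset of V0v spinal interneurons, cells assigned to an inhibitory state by a few genes were compared with cells assigned to an excitatory one. The subset, called subset 2 here, was defined by the genes *esrrb*, *scxa* and *svild*. A cell entered it with at least 1 unique molecular identifier (UMI, a counted transcript molecule) of these 3 genes together and no UMI of *anos1a*, *chrna2b*, *fndc4b*, *plpp4*, *cnih3* and *drd2b*, the 6 genes that marked subset 1. On the inhibitory side a cell also had at least 1 UMI of *hmx2*, *hmx3a* or *slc6a5* and none of *slc17a6a*, *slc17a6b* and *evx2*. On the excitatory side it had at least 1 UMI of *evx2*, *slc17a6a* or *slc17a6b* and none of *hmx2*, *hmx3a*, *slc6a1b* and *slc6a5*. These rules gave 681 inhibitory cells (327 in library 1 and 354 in library 2) and 1670 excitatory cells (830 and 840), so that both sides together held 2351 of the 8127 cells that passed quality control. The 16 genes of the rules chose the cells, and their values are given as descriptions only. In libraries 1 and 2, 79.2% and 83.9% of excitatory cells had a UMI of the transcription factor gene *evx2*. For the glutamate transporter genes the shares were 51.0% and 56.8% (*slc17a6a*) and 14.9% and 24.5% (*slc17a6b*). Part of the excitatory side thus had no glutamate transporter UMI, and the names of the sides stand for the rules.

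The cells came from 2 single-cell libraries of zebrafish trunks at 48 h, sorted by the EGFP of the line *Tg(evx1:EGFP)SU2*, which follows *evx1*. Both parents of the untreated embryos carried 1 mutant copy each of *evx1* (allele i232) and *evx2* (allele sa140) beside the transgene, so each pool could hold wild-type, heterozygous and homozygous mutant embryos. No cell has a genotype label, and the number of cells of each genotype on either side is unknown. Both sides were drawn from each of the 2 libraries, which the submitters describe as biological replicates. The p-values below rest on how far differences between classes of cells varied from 1 library to the other. That variation was estimated over 4 classes together, the 2 sides of this subset and the 2 sides of subset 1.

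V0v interneurons are commissural neurons of the ventral spinal cord that derive from the p0 progenitor domain and are marked by the homeodomain factors Evx1 and Evx2. They are normally glutamatergic, loading glutamate into vesicles with the transporters encoded by the *slc17a6* genes, whereas inhibitory interneurons load glycine and GABA with Slc32a1, take up glycine with Slc6a5 and make GABA with the Gad enzymes. In zebrafish embryos that lack Evx1 and Evx2, V0v cells are known to gain glycinergic features.

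The libraries held 4373 and 6223 cells, with 18908819 and 34071583 UMIs, and 3 cell barcodes occurred in both. UMIs were summed per library and side, and sums ranged from 678628 to 4099792 UMIs over the 8 sums that were fitted, which included both sides of subset 1. Levels are given as CPM, a gene's UMIs per 1000000 UMIs of that library and side. The libraries differed strongly in heat-shock transcripts, with *hsp70l* at 6900 CPM in library 1 and 54.5 CPM in library 2 on the inhibitory side. Library was carried as a term of the model, so that sides were compared within each library. The sample titles of the libraries differ in terms that the labels do not explain.

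The rules split the subset unevenly. In libraries 1 and 2, 54.0% and 52.5% of the kept cells had a UMI of the 3 subset genes, and 8.14% and 8.65% of these cells also had a UMI of subset 1 and were left out. Of the remaining 1772 and 2186 cells, the inhibitory side took 18.5% and 16.2% and the excitatory side 46.8% and 38.4%. UMIs of both states occurred in 14.8% and 18.3%, and 19.9% and 27.1% met neither rule. The inhibitory side thus made up 28.3% of the cells of both sides in library 1 (exact 95% confidence interval 25.7 to 31.0) and 29.6% in library 2 (27.1 to 32.3), intervals that cover counting error only and that overlap. Just inside the threshold, a lone state UMI admitted 32.4% and 15.8% of the inhibitory cells and 34.2% and 17.1% of the excitatory cells. Just outside it, a lone excitatory UMI kept 118 and 125 cells from the inhibitory side, and a lone inhibitory UMI kept 119 and 140 cells from the excitatory side.

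The marker *esrrb*, an orphan nuclear receptor gene, carried most of the subset assignment. It was detected in 89.9% and 90.4% of inhibitory cells, against 82.0% and 86.9% of excitatory cells. The bHLH factor gene *scxa* was detected in 30.9% and 28.0% of inhibitory cells, against 54.5% and 51.4% of excitatory cells, and *svild* in 5.50% and 10.2%, against 6.99% and 10.0%. At least 3 of 6 neuronal markers were present in 91.4% and 93.8% of inhibitory cells and in 95.2% and 95.1% of excitatory cells, so the cells of both sides were neurons by these markers. Inhibitory cells were shallower, with a median of 3346 and 3859 UMIs per cell, against 4221 and 4870 UMIs in excitatory cells. Shares of cells are therefore given below after each cell was thinned to 2000 UMIs, which left out 24 and 7 inhibitory and 21 and 11 excitatory cells.

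Across all genes, 1244 of the 9418 genes tested (13.2%) differed between the sides, with a Benjamini-Hochberg adjusted p under 0.05 over all genes in edgeR's quasi-likelihood test. On the inhibitory side 567 genes were higher (6.02%) and 677 were lower (7.19%). These shares are the background for the counts of each gene list below. The median log2 fold change of all genes tested was -0.01. Without the library term the count was 330 genes (178 higher and 152 lower), and with DESeq2's Wald test it was 427 (232 higher and 195 lower). The plot of levels by library shows selected genes in each library, chosen after their values were seen.

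**Figure D1:**
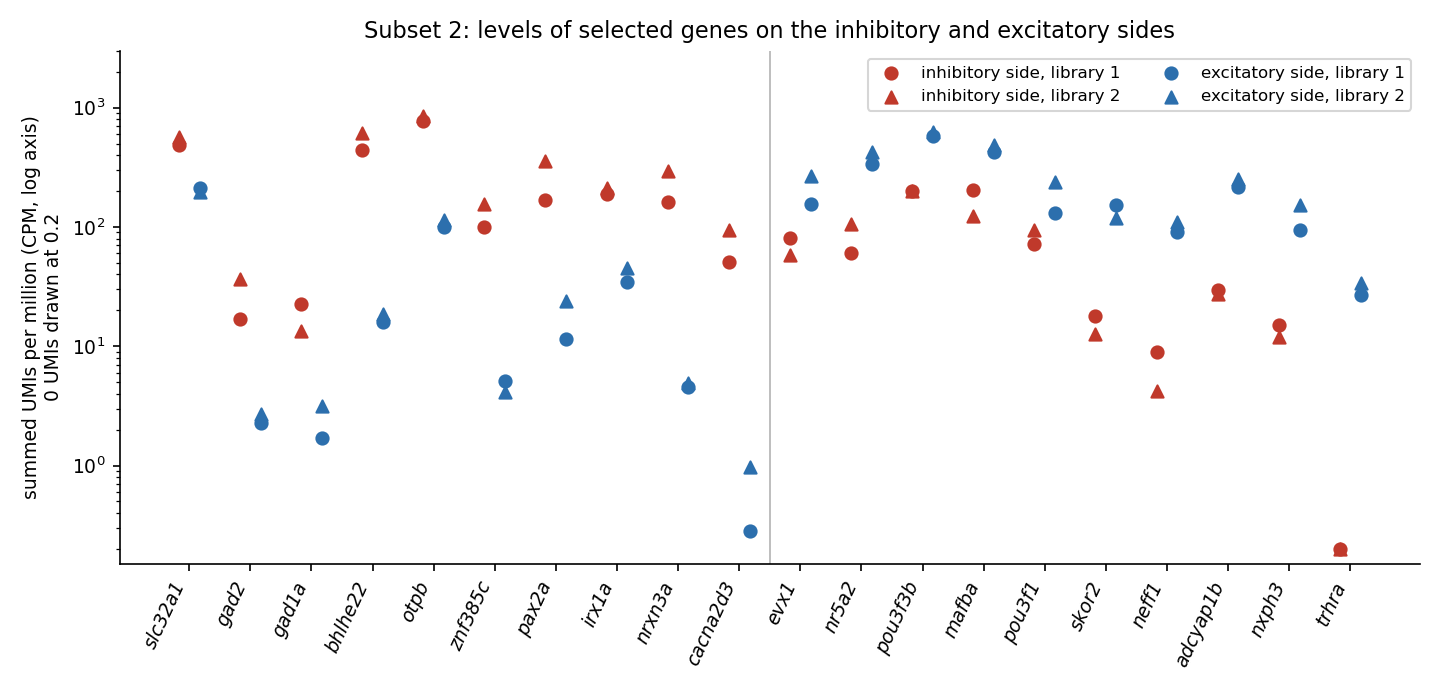
Levels (CPM, log axis) of 20 genes on the inhibitory side (red, left of each pair) and the excitatory side (blue, right) of subset 2, with circles for library 1 and triangles for library 2. For each gene both inhibitory points lie on the same side of both excitatory points, for example 438 and 609 CPM against 16.1 and 18.5 CPM for *bhlhe22*, and *trhra* had no UMI on the inhibitory side and is drawn at 0.2.

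Genes of inhibitory transmission that took no part in the rules were higher on the inhibitory side. *slc32a1*, which encodes the vesicular transporter for GABA and glycine, stood at 484 and 563 CPM in inhibitory cells of library 1 and library 2, against 212 and 195 CPM in excitatory cells. All inhibitory values lay above all excitatory ones, and the log2 fold change was 1.35 ± 0.11 (SE, edgeR adjusted p = 9.14e-08). After thinning, 58.7% and 63.1% of inhibitory cells had an *slc32a1* UMI, against 25.5% and 22.6% of excitatory cells, and the unthinned shares were 69.7% and 82.8%, against 36.5% and 34.4%. In cells with fibroblast markers, which should lack the gene, the thinned shares were 0 of 67 cells, which allows a share of up to 4.48%, and 0.286% of 700 cells, at a median unthinned depth of 5047.5 and 5444 UMIs. The excitatory share was far above this background, so *slc32a1* transcripts were also present in cells admitted as excitatory.

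The GABA-synthesizing enzymes were scarce but followed the same direction. *gad2* stood at 17.0 and 36.3 CPM on the inhibitory side, against 2.26 and 2.68 CPM on the excitatory side, a log2 fold change of 3.39 ± 0.38 (edgeR adjusted p = 5.29e-06). For *gad1a* the levels were 22.4 and 13.3 CPM, against 1.70 and 3.17 CPM, a change of 2.76 ± 0.47 (edgeR adjusted p = 0.000468). *gad1b* had 15 UMIs on the inhibitory side and 1 on the excitatory side, a ratio of CPM of 45.0 with a counting interval of 6.92 to 1890. At equal depth only 4.2% of inhibitory cells had a *gad2* UMI and 2.95% a *gad1a* UMI (means of 2 libraries), against 0.305% and 0.547% of excitatory cells. Of the 9 genes of the GABA and glycine list that were tested, *slc32a1* and these *gad* genes were higher (44.4%, against 6.02% of all genes). None was lower, and the list median was 0.85. The filter on low counts was applied by class, and the *gad* genes were rare on the excitatory side. They could thus be tested only through classes where they were higher, so the count was fixed in part by the filter and is not evidence of direction. The glial-type glycine transporter gene *slc6a9* (8.96 and 16.1 CPM against 6.50 and 7.32 CPM, edgeR adjusted p = 0.153), the GABA transaminase gene *abat* (adjusted p = 0.257) and the gephyrin genes *gphna* and *gphnb*, which encode the scaffold of inhibitory synapses (adjusted p = 0.873 and 0.0758), did not pass. When cells with a UMI of other interneuron types were left out, an alternative chosen after seeing the data, *gad1a* and *gad2* were too low to be tested and *gad1b* no longer passed (edgeR adjusted p = 0.180).

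Of 6 other transmitter genes tested, on the glutamatergic and cholinergic side, the glutamine synthetase gene *glulb* was higher (1.08 ± 0.25, edgeR adjusted p = 0.00788) and the glutamate uptake gene *slc1a2b* lower (-0.34 ± 0.10, edgeR adjusted p = 0.0343). The call of *slc1a2b* was lost in 10 of 16 alternatives, with changes as small as -0.09, and that of *glulb* in 3 of 14.

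*evx1*, the paralogue of the gate gene *evx2* and the gene whose regulatory sequence drives the EGFP of the sort, was lower on the inhibitory side but not lost. It stood at 80.6 and 58.7 CPM in inhibitory cells, against 156 and 266 CPM in excitatory cells. The groups did not overlap, and the fitted log2 fold change was -1.62 ± 0.21 (edgeR adjusted p = 2.15e-05), -0.94 within library 1 and -2.16 within library 2. Thinned cells with an *evx1* UMI made up 12.5% and 8.07% of inhibitory cells, against 27.1% and 37.3% of excitatory cells. The unthinned shares were 20.5% and 16.4%, against 42.0% and 60.4%, and fibroblast-marker cells had thinned shares of 0.0% and 0.286%, with the same limit on the first. Among the other p0 and V0 regulators, the paired-box gene *pax2a*, a marker of inhibitory spinal interneurons in vertebrates, was higher at 169 and 358 CPM, against 11.6 and 24.1 CPM, a log2 fold change of 3.87 ± 0.15 (edgeR adjusted p = 3.62e-12). Its relative *pax8* stood at 551 and 649 CPM, against 200 and 223 CPM, a change of 1.49 ± 0.12 (edgeR adjusted p = 5.67e-08). The LIM-homeodomain gene *lhx1b* was 0.87 ± 0.22 higher (edgeR adjusted p = 0.0138). Of 8 tested members of the V0 list 5 were higher and *evx1* alone was lower. Without the library term 2 of 8 were higher, and 178 of 9418 among all genes. The call of *lhx1b* was lost in 5 of 15 alternatives, with 0.46 under *hmx* admission (edgeR adjusted p = 0.43).

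Among the transcription factor genes that the study named as higher in mutant cells, *hmx2* and *hmx3a* chose the cells here and were left out. The other 6 were all higher on the inhibitory side, with a list median of 3.03 against -0.01 for all genes. The study chose these genes on the same libraries, so their direction is not independent evidence. *bhlhe22*, a bHLH repressor gene, had 438 and 609 CPM in inhibitory cells, against 16.1 and 18.5 CPM in excitatory cells, a log2 fold change of 4.91 ± 0.20 (edgeR adjusted p = 6.67e-12). The homeobox gene *otpb* was more abundant and differed less, at 770 and 846 CPM, against 99.2 and 115 CPM (2.90 ± 0.13, edgeR adjusted p = 2.72e-11). For the zinc-finger gene *znf385c* the levels were 99.5 and 157 CPM, against 5.09 and 4.15 CPM (4.78 ± 0.21, edgeR adjusted p = 2.61e-11). The related *znf385a* changed by 3.16 ± 0.29 and the Iroquois homeobox gene *irx1a* by 2.32 ± 0.16. *zmat4b*, with 11 and 5 UMIs on the 2 sides over both libraries, changed by 2.58 ± 0.78 (edgeR adjusted p = 0.0346) and lost its call in 4 of 15 alternatives.

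These factors were found in only a part of the inhibitory cells at equal depth. An *otpb* UMI was present in 52.5% and 43.5% of thinned inhibitory cells, against 12.9% and 12.7% of excitatory cells. *pax2a* was found in 25.1% and 39.5%, against 2.22% and 4.58%, and *bhlhe22* in 29.7% and 32.6%, against 2.22% and 3.50%. Before thinning, the mean inhibitory and excitatory shares were 56.0% and 18.9% for *otpb*, 43.6% and 5.68% for *pax2a* and 39.8% and 4.49% for *bhlhe22*. Thinned fibroblast-marker cells had 0.0% and 0.286% for *otpb*, 0 of 767 cells for *pax2a*, which allows up to 0.391%, and 0.0% and 0.143% for *bhlhe22*.

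**Figure D2:**
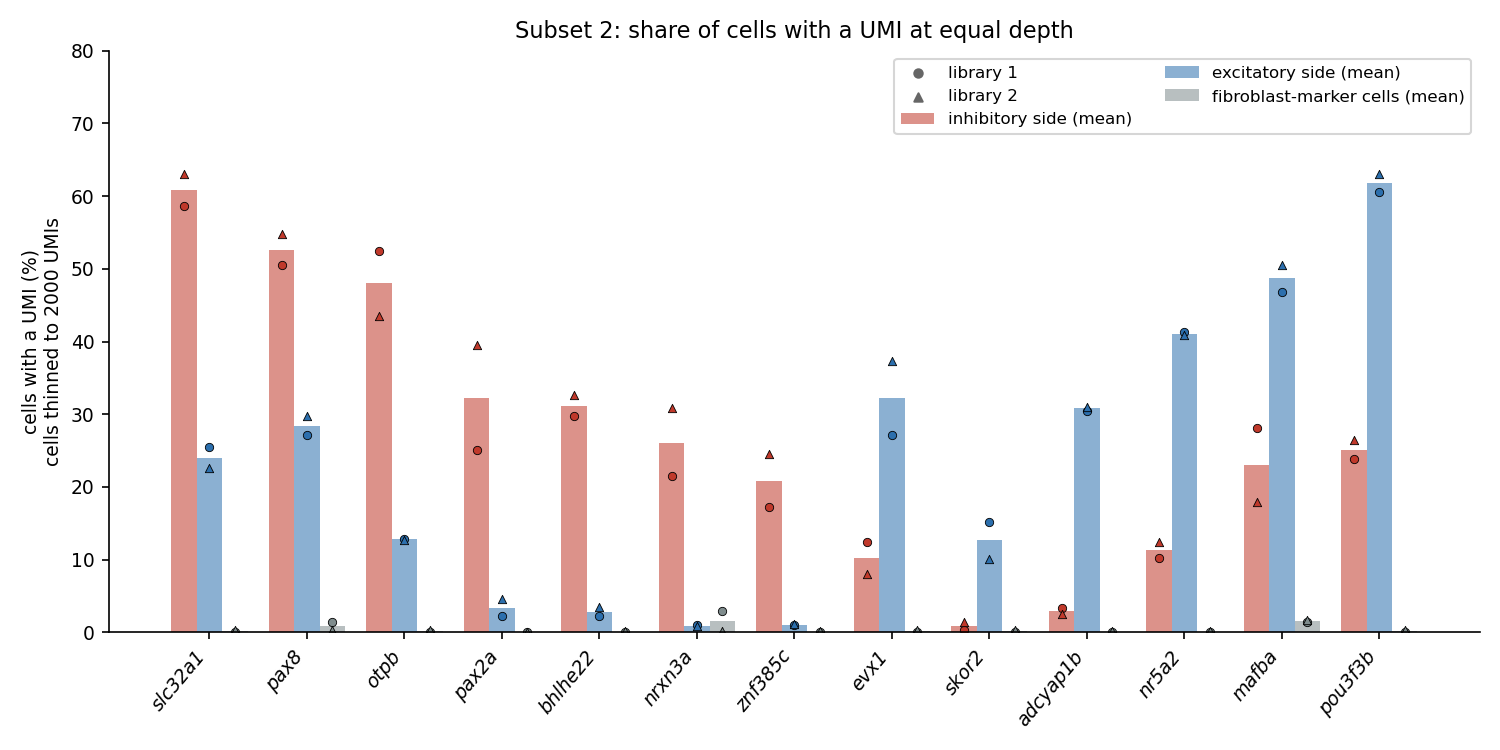
Share of cells with a UMI of 13 genes after each cell was thinned to 2000 UMIs, on the inhibitory side (red), on the excitatory side (blue) and in cells with fibroblast markers (grey, the background), with bars for the mean of 2 libraries and points for each library. For *slc32a1* the means were 60.9%, 24.0% and 0.143%, and for *pou3f3b* they were 25.1%, 61.8% and 0.143%.

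Of 18 regulators taken from those that the study named as lower in mutant cells, 10 were lower on the inhibitory side of subset 2, none was higher, and 8 did not pass, with a list median of -0.62. This list too was chosen on these libraries and is no independent evidence of direction. The study named these genes over both of its subsets, by tests on the cells of its clusters. Within its cluster pair marked by *esrrb*, *scxa* and *svild*, its hurdle model placed all 18 lower in mutant cells. Its ANOVA of that pair placed *pou2f2a*, *pou2f2b*, *scrt2* and *ebf1a* on the higher side. *nr5a2*, a nuclear receptor gene, stood at 60.0 and 105 CPM in inhibitory cells, against 335 and 429 CPM in excitatory cells, a log2 fold change of -2.23 ± 0.13 (edgeR adjusted p = 1.09e-09). The POU homeodomain gene *pou3f3b* stood at 199 and 201 CPM, against 580 and 620 CPM (-1.60 ± 0.12, edgeR adjusted p = 2.82e-08). *mafba*, a bZIP factor gene, had 203 and 123 CPM, against 422 and 485 CPM (-1.52 ± 0.17, edgeR adjusted p = 3.61e-06). *pou3f1* changed by -1.15 ± 0.13, and the third family member, *pou3f2b*, by only -0.45 ± 0.14 (edgeR adjusted p = 0.0366), with 353 and 320 CPM, against 435 and 477 CPM, a call that 8 of 16 alternatives did not keep.

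Other lower members were less abundant. *ccdc3a* changed by -2.96 ± 0.47, *dachc* by -1.19 ± 0.29, *mycb* by -0.75 ± 0.18 and *ebf1a* by -0.62 ± 0.19. *dachc* lost its call in 5 of 15 alternatives and *mycb* in 4 of 16, both with DESeq2's Wald test and in thinned cells among them. The call of *ebf1a* (44.8 and 37.7 CPM against 59.1 and 65.1 CPM, edgeR adjusted p = 0.0422) was lost in 9 of 16 alternatives. The abundant regulators *zfhx3b* (885 and 1040 CPM against 862 and 998 CPM, log2 0.03 ± 0.16), *scrt1a* (0.21 ± 0.11), *pou2f2b* (0.11 ± 0.20) and *pou2f2a* (0.40 ± 0.27) did not pass. With the inhibitory side admitted by *hmx2* and *hmx3a* alone, 3 members of the list were higher and 10 lower. *pou2f2a* then changed by 1.06 (edgeR adjusted p = 0.0156), *pou2f2b* by 0.67 (0.0301) and *scrt2* by 0.60 (0.0166).

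Of the 10 genes the study followed as candidates, 4 were lower and 2 higher on the inhibitory side, and *skor2* and *neff1* had the largest decreases that rest on more than a few UMIs. *skor2*, a co-repressor gene of the Ski family, stood at 17.9 and 12.6 CPM in inhibitory cells, against 154 and 118 CPM in excitatory cells (-3.20 ± 0.25, edgeR adjusted p = 6.20e-08). *neff1*, an intermediate filament gene, had 8.96 and 4.19 CPM, against 91.3 and 111 CPM (-4.01 ± 0.30, edgeR adjusted p = 2.82e-08). *skor1a* had 2 UMIs on the inhibitory side and 62 on the excitatory side, so that the excitatory CPM was 10.3 times the inhibitory CPM with a counting interval of 2.74 to 87.3. Its call was lost in 2 of 11 alternatives. The internexin gene *inab* had 164 and 176 CPM, against 285 and 240 CPM (-0.64 ± 0.15, edgeR adjusted p = 0.00624), and lost its call in 5 of 16 alternatives. Its change was -0.15 with *hmx* admission (edgeR adjusted p = 0.546), -0.31 in cells thinned and gated again (0.318) and -0.37 without cells of other classes (0.133).

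The other candidates were higher or did not pass. The homeobox gene *uncx* was higher at 507 and 377 CPM, against 229 and 204 CPM (1.00 ± 0.14, edgeR adjusted p = 7.38e-05), as was the neurofilament gene *nefma* at 28.7 and 23.1 CPM, against 9.61 and 9.27 CPM (1.42 ± 0.23, edgeR adjusted p = 0.000282). For *ebf3a*, a COE-family factor gene, the values overlapped at 203 and 159 CPM, against 200 and 214 CPM (-0.22 ± 0.14, edgeR adjusted p = 0.334). *uncx4.1* (0.77 ± 0.27), *nefmb* (-1.04 ± 0.75) and *skor1b*, with 0 UMIs on the inhibitory side and 5 on the excitatory side, did not pass.

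Among all genes with at least 50 UMIs and a named symbol, the largest increases on the inhibitory side included several synaptic genes beside transcription factors. The presynaptic adhesion gene *nrxn3a* stood at 163 and 295 CPM, against 4.52 and 4.88 CPM (5.60 ± 0.20, edgeR adjusted p = 2.42e-12). *cacna2d3*, which encodes an auxiliary subunit of voltage-gated calcium channels, had 51.1 and 94.3 CPM, against 0.283 and 0.976 CPM, with 192 and 5 UMIs over both libraries and a fitted change of 6.66 ± 0.35. *slc30a2*, a zinc transporter gene, had 50.2 and 125 CPM, against 1.13 and 0.732 CPM (6.47 ± 0.40). *nsmfb* (4.86 ± 0.49) and *phyhip* (4.67 ± 0.47) completed this group of genes that are not transcription factors.

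The strongest decreases included secreted and receptor genes. *adcyap1b*, which encodes the neuropeptide PACAP, stood at 29.6 and 27.3 CPM in inhibitory cells, against 218 and 252 CPM in excitatory cells (-3.09 ± 0.20, edgeR adjusted p = 3.69e-09), and was found in 3.30% and 2.59% of thinned cells, against 30.5% and 31.0%. Unthinned shares for *adcyap1b* were 6.12% and 5.08%, against 44.6% and 50.1%, with thinned background shares of 0.0% and 0.143%. *nxph3*, a neurexophilin gene whose mammalian products bind alpha-neurexins, had 15.2 and 11.9 CPM, against 93.9 and 154 CPM (-3.24 ± 0.22, edgeR adjusted p = 9.03e-09). *cbln1*, a cerebellin gene whose product binds neurexins at excitatory synapses, had 3.58 and 2.80 CPM, against 31.1 and 35.1 CPM (-3.41 ± 0.54, edgeR adjusted p = 0.000243). The neurexin ligand genes *nxph3* and *cbln1* were thus lower on the side where *nrxn3a* was higher.

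*trhra*, the receptor gene for thyrotropin-releasing hormone, had no UMI in 681 inhibitory cells, which allows up to 0.441% of cells with a UMI, and 235 UMIs in excitatory cells, at 27.1 and 33.9 CPM. Against a floor of 3 UMIs over both libraries it was 26.1-fold lower on the inhibitory side, a value that leaves out the counting error of the excitatory UMIs. *bmp16*, a BMP ligand gene, had 7.17 and 0.0 CPM, against 61.3 and 39.0 CPM, and *tagln3b*, a neuronal transgelin gene, 8.96 and 1.40 CPM, against 59.1 and 61.2 CPM. Their fitted changes were -3.95 ± 0.41 and -3.66 ± 0.35. The remaining genes with the largest decreases were *col6a3* (3 and 155 UMIs), *cpne8* (2 and 88 UMIs) and *barhl1b* (4 and 107 UMIs), a homeobox gene of dorsal dI1 interneurons. The excitatory CPM of *col6a3* was 17.2 times the inhibitory CPM (counting interval 5.79 to 84.5) and that of *cpne8* 14.7 times (3.94 to 123).

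The inhibitory side also held transcripts that mark other inhibitory interneuron classes, and these did not spread evenly over it. At least 1 UMI from the lists of V1, V2a, V2b, V3, dorsal or motoneuron genes was found in 32.1% and 54.2% of inhibitory cells, against 16.5% and 24.3% of excitatory cells, without thinning and with the excitatory cells deeper. Of the 3 V1 factors tested 3 were higher, with a median of 5.69, and of the 4 V2b and Kolmer-Agduhr genes tested 4 were higher, with a median of 4.01. Of all genes tested 6.02% were higher. The filter on low counts was applied by class, so a gene too rare on the excitatory side could be tested only through classes where it was high. Such counts were therefore fixed in part by the filter and are not evidence of direction. The V1 genes summed to 116 and 338 CPM, against 8.20 and 28.1 CPM, and the V2b genes to 34.9 and 124 CPM, against 9.33 and 8.05 CPM. On the excitatory side, and on the inhibitory side of library 1, most of the V1 sum was *foxp2*. The study lists *foxp2* as a dI2 gene and also places it in V1 cells. A *foxp2* UMI alone was enough for a cell to count in the shares of cells above. Of 4 dorsal interneuron factors tested 2 were higher and 1 lower, and that list summed to 74.4 and 242 CPM, against 15.3 and 26.6 CPM. All these sums were higher in library 2 than in library 1 on the inhibitory side. Motoneuron genes summed to 11.6 and 8.39 CPM, against 21.2 and 25.6 CPM, and V2a and V3 factors to 1.79 and 5.59 CPM, against 1.98 and 4.39 CPM.

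Cells reached the inhibitory side by different genes, and the other-class factors followed that split. In library 1 and library 2, 63.0% and 67.2% of inhibitory cells had *slc6a5* without *hmx2* or *hmx3a*, 24.5% and 24.0% had both, and 12.5% and 8.76% had an *hmx* UMI alone. The dI6 gene *dmrt3a* stood at 89.3 and 323 CPM in cells with *slc6a5* alone and at 5.01 and 24.9 CPM in cells with an *hmx* UMI, against 0.565 and 3.66 CPM in excitatory cells. *gata3*, a factor gene of V2b and Kolmer-Agduhr neurons, had 15.3 and 87.9 CPM in cells with *slc6a5* alone and no UMI in 237 cells with an *hmx* UMI, which allows up to 1.27% of them. *tal1* likewise had 8.37 and 29.3 CPM and no UMI in cells with an *hmx* UMI. The V1 gene *en1b* ran the other way, at 8.37 and 70.7 CPM in cells with *slc6a5* alone and 37.6 and 247 CPM in cells with an *hmx* UMI, as did *foxd3* at 8.37 and 33.3 CPM and 25.0 and 120 CPM. These splits are descriptions without a test, since the rule itself defined them.

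Over the whole inhibitory side *dmrt3a* had 397 UMIs, against 17 on the excitatory side (6.08 ± 0.28, edgeR adjusted p = 1.20e-10), *en1b* 200 against 10 (5.70 ± 0.50), *foxd3* 102 against 5 (5.69 ± 0.44) and *gata3* 98 against 1. The CPM ratio of *gata3* was 294 with a counting interval of 51.5 to 11700. *dmrt2a*, with 69 UMIs against 1, had a ratio of 207 (35.9 to 8290). *foxp2*, expressed by a subset of V1 neurons in mouse, stood at 82.4 and 122 CPM, against 7.63 and 23.4 CPM (2.74 ± 0.21, edgeR adjusted p = 4.13e-08). Each of these genes was in few cells: 9.84% of thinned inhibitory cells had *dmrt3a*, 5.31% *en1b* and 1.17% *gata3* (means of 2 libraries), against 0.424%, 0.241% and 0.0603% of excitatory cells. The unthinned means were 12.4%, 5.45% and 1.44%, against 0.716%, 0.357% and 0.0595%, and thinned fibroblast-marker cells had a mean of 2.85% for *en1b* and 0.961% for *gata3*, and 0 of 767 cells for *dmrt3a*. In library 1 the thinned inhibitory share of *en1b* (1.98%) was below the background share (2.99%), and only in library 2 was it above (8.65% against 2.71%). For *dmrt2a* the mean thinned share was 1.92% on the inhibitory side and 1.89% in fibroblast-marker cells. The inhibitory shares of *gata3*, of *dmrt2a* and, in library 1, of *en1b* are therefore not read as expression above that of fibroblast-marker cells. Excitatory cells of the same libraries had lower mean thinned shares of *en1b* (0.241%) and *gata3* (0.0603%). *en1b* had no UMI on the excitatory side of library 1. Whether fibroblast-marker cells express these genes themselves was not tested.

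The main regulators passed in both alternatives that narrow the sides. Admission by *hmx2* and *hmx3a* alone left V1 factors in place, with 3 of 3 higher, *en1b* by 6.67 and *foxd3* by 6.62. The limit set by the filter on low counts holds for this count too. The study places both *hmx* genes in normal V1 and dI2 interneurons, so this admission does not leave out V1 cells. It also lists *foxp2*, counted here among the V1 factors and so among the genes of other classes, as a gene of dI2 cells. With that admission the log2 fold change of *bhlhe22* was 5.04, that of *otpb* 2.90, that of *pax2a* 3.76 and that of *nr5a2* -2.71. After cells with a UMI of the other classes were left out of both sides (the alternative chosen after seeing the data), they were 5.61, 2.79, 3.90 and -2.63. All 8 values passed with an edgeR adjusted p of 1.55e-08 or lower. *pax8*, by contrast, changed by 0.71 in the *hmx* alternative (edgeR adjusted p = 0.00265), and *pou3f1* by -2.18 (edgeR adjusted p = 7.59e-07). Of the 124 named genes that passed, 106 could be tested in the *hmx* alternative and 84 passed, and 101 and 75 without the other classes.

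**Figure D3:**
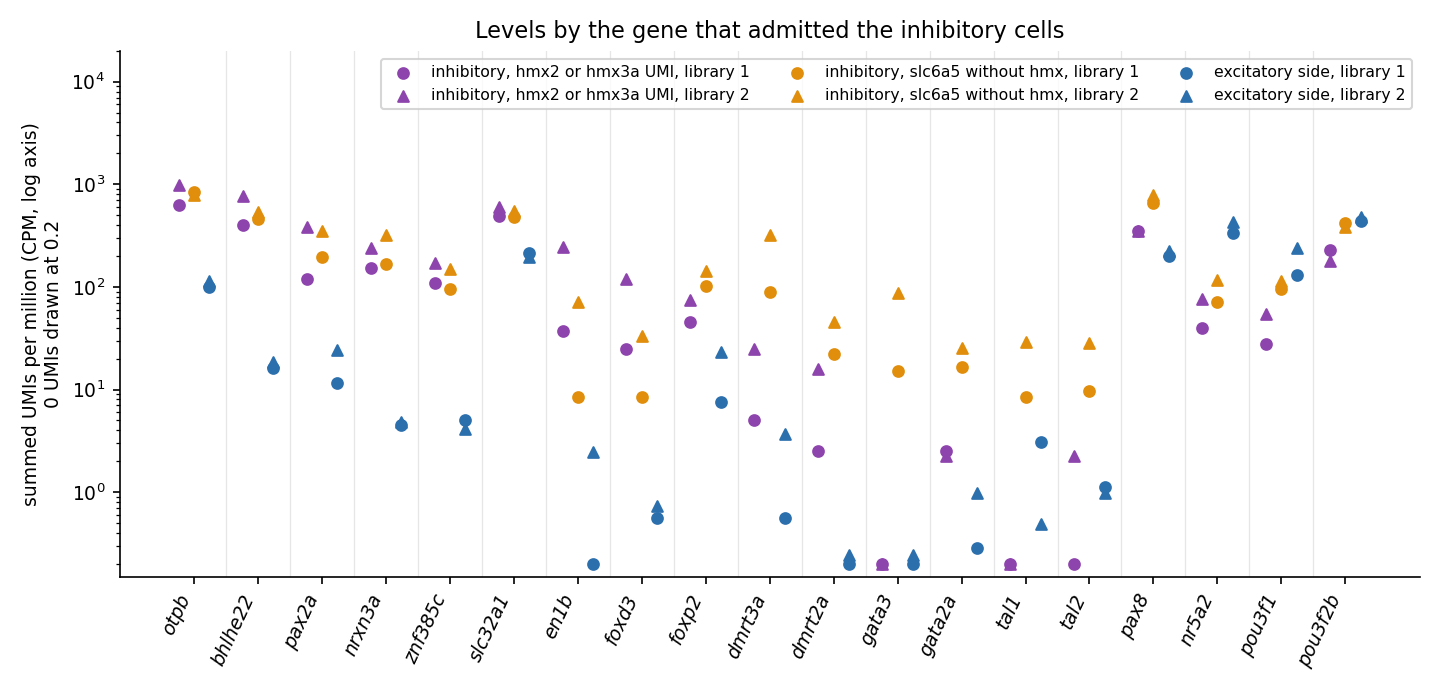
Levels (CPM, log axis) of 19 genes in inhibitory cells with an *hmx2* or *hmx3a* UMI (purple), in inhibitory cells with *slc6a5* but no *hmx* UMI (orange) and in excitatory cells (blue), with circles for library 1 and triangles for library 2 and 0 UMIs drawn at 0.2. The regulators at the left lie together in both inhibitory groups, for *bhlhe22* at 398 and 766 CPM and at 460 and 539 CPM, whereas *gata3* and *tal1* had no UMI in cells with *hmx*.

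Pan-neuronal transcripts were lower on the inhibitory side. Of 17 such genes 9 were lower (52.9%, against 7.19% of all genes) and none was higher, with a median of -0.32. Cells of both sides nevertheless passed the neuronal marker check. *gap43*, a growth cone protein gene, stood at 964 and 674 CPM in inhibitory cells, against 2330 and 2170 CPM in excitatory cells (-1.49 ± 0.12, edgeR adjusted p = 1.00e-07). The tubulin gene *tubb5* had 1080 and 836 CPM, against 2210 and 1810 CPM (-1.09 ± 0.10, edgeR adjusted p = 3.58e-07). *stmn2a*, a microtubule regulator of growing axons, changed by -0.89 ± 0.11 and the microtubule-associated protein gene *map1b* by -0.89 ± 0.14. Without the library term 3 of 17 were lower, and 152 of 9418 among all genes. In the fit of thinned cells 6 of 17 were lower and none was higher, and among all genes 275 of 6400 were lower. For that fit cells were admitted again by the rules after thinning to 2000 UMIs, which gave 260 and 362 inhibitory cells and 516 and 618 excitatory cells, so that its counts differ in both depth and cells.

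Among 29 genes of synaptic vesicles and release 5 were lower (17.2%, against 7.19% of all genes) and none was higher, with a median of -0.13. *snap25b*, a SNARE gene, had 181 and 267 CPM, against 487 and 630 CPM (-1.33 ± 0.11, edgeR adjusted p = 1.01e-07), and the complexin gene *cplx2l* 1520 and 1100 CPM, against 2530 and 2310 CPM (-0.91 ± 0.12, edgeR adjusted p = 2.24e-05). *snap25a*, the paralogue of *snap25b*, differed less, at 884 and 881 CPM, against 1210 and 1220 CPM (-0.47 ± 0.10), and did not pass with *hmx* admission (-0.02). The synapsin gene *syn1* changed by -1.11 ± 0.21 but by -0.21 in thinned cells (edgeR adjusted p = 0.727).

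Nuclear genes of oxidative phosphorylation were lower as well. Of 90 tested 36 were lower (40.0%) and none was higher, 86 of the 90 had a negative log2 fold change, and the median was -0.32. *atp5mc3a*, an ATP synthase subunit gene, stood at 686 and 639 CPM, against 1310 and 1390 CPM (-1.04 ± 0.11, edgeR adjusted p = 3.36e-06), and *cycsb*, a cytochrome c gene, at 395 and 412 CPM, against 726 and 696 CPM (-0.83 ± 0.11, edgeR adjusted p = 3.33e-05). The count was 7 of 89 in thinned cells, 2 of 90 without the library term and 54 of 89 with *hmx* admission. Among all genes tested in these settings, 275 of 6400, 152 of 9418 and 687 of 7999 were lower. The list therefore stood out far less in thinned cells and without the library term. Ribosomal protein genes, by contrast, stood at 198000 and 166000 CPM in sum, against 196000 and 171000 CPM, and 2 of 91 genes of that list were higher, *rps27l* and the kinase gene *rps6ka1*, which its name had brought into the list.

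Several factors of neuronal differentiation went the other way, with 9 of 18 higher, none lower and a median of 0.44. *nhlh2*, a bHLH factor gene of postmitotic neurons, had 119 and 133 CPM, against 49.5 and 64.1 CPM (1.13 ± 0.13, edgeR adjusted p = 4.76e-06), and *myt1a* 402 and 299 CPM, against 194 and 175 CPM (0.90 ± 0.11, edgeR adjusted p = 1.65e-05). *myt1la* and *sox4a* changed by 0.90 ± 0.18 and 0.96 ± 0.28. Without the library term 2 of 18 were higher, and 178 of 9418 among all genes. Of 11 progenitor and Notch genes tested, *vim* (284 and 246 CPM against 531 and 446 CPM, -0.90 ± 0.12) and the ligand gene *jag2b* (-1.09 ± 0.28) were lower and none was higher.

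Hox genes, which set position along the trunk, shifted modestly. Of 37 tested 8 were higher (21.6%, against 6.02% of all genes) and 3 lower (8.11%, against 7.19%), with a median of 0.14. In thinned cells, however, 4 of 32 were higher and 6 lower, so the list had no stable direction. Among all genes in that fit 263 of 6400 were higher and 275 lower. Without the library term 1 was lower and none higher. With only 178 higher and 152 lower among all 9418 genes there, that count is too small to show a direction. *hoxb6b* stood at 164 and 188 CPM, against 74.9 and 130 CPM (0.79 ± 0.14, edgeR adjusted p = 0.000554), and *hoxb5b* at 66.3 and 75.5 CPM, against 32.2 and 44.1 CPM (0.87 ± 0.17, edgeR adjusted p = 0.00163), while the posterior gene *hoxd12a* was lower at 41.2 and 25.2 CPM, against 61.9 and 73.7 CPM (-1.09 ± 0.24, edgeR adjusted p = 0.00453). These 3 calls were lost with *hmx* admission and when cells with a UMI of other classes were left out, where the changes were 0.54 and 0.63 for *hoxb6b*, 0.33 and 0.26 for *hoxb5b* and -0.99 and -0.55 for *hoxd12a*.

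**Figure D4:**
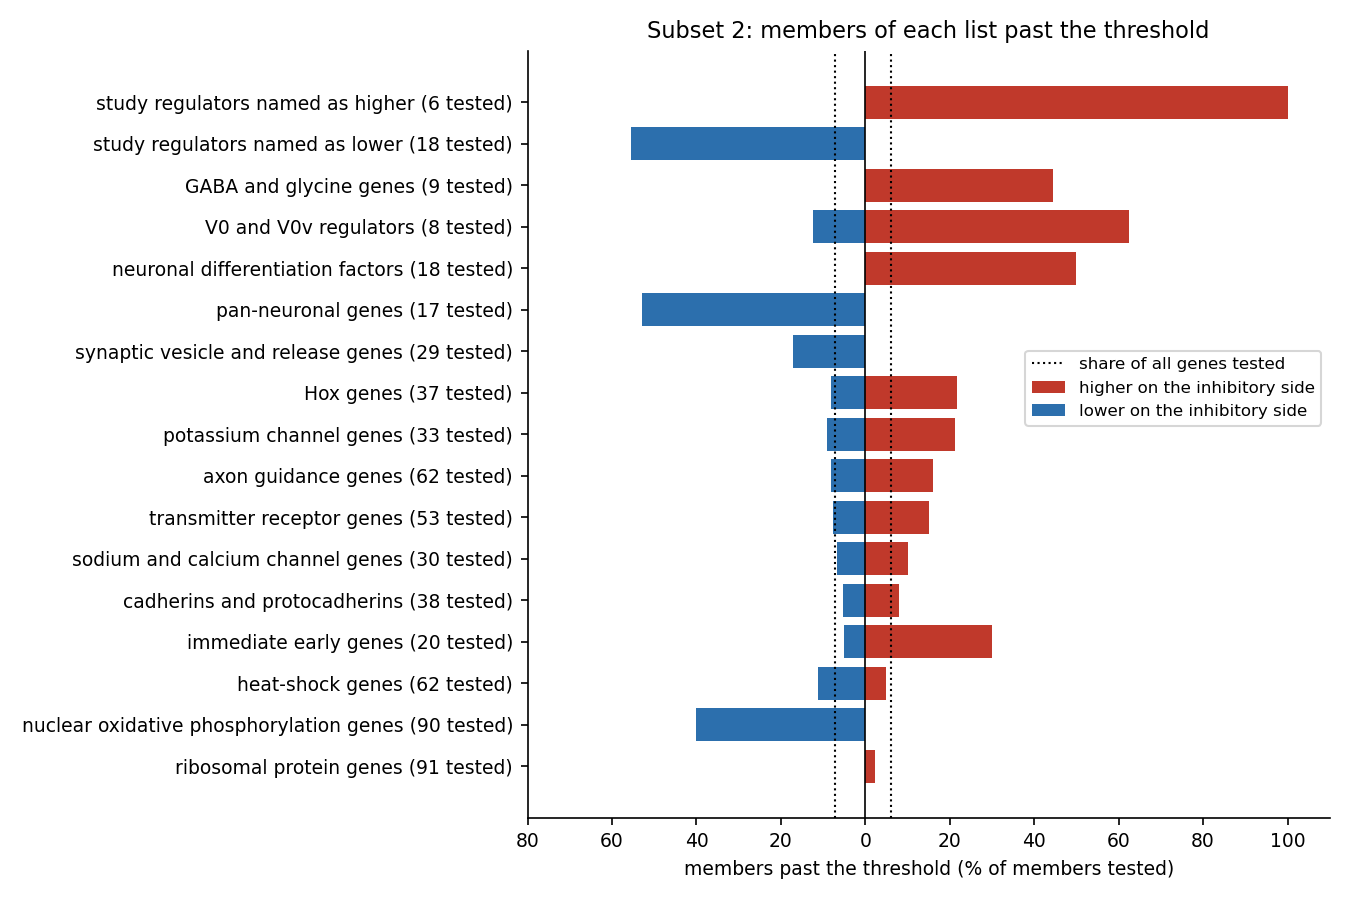
Share of the tested members of 17 gene lists that were higher (red, to the right) or lower (blue, to the left) on the inhibitory side at an edgeR adjusted p under 0.05, with dotted lines at the shares among all genes tested (6.02% higher and 7.19% lower). The bars of pan-neuronal genes and oxidative phosphorylation genes lie to the left alone, at 52.9% and 40.0%.

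Genes that shape axons, adhesion and excitability were spread over both directions. Of 62 axon guidance genes 10 were higher (16.1%, against 6.02% of all genes) and 5 lower (8.06%, near the 7.19% of all genes), with a median of 0.07. The secreted repellent gene *sema3b* had 50.2 and 86.0 CPM, against 3.96 and 2.44 CPM (4.40 ± 0.31, edgeR adjusted p = 1.11e-08), and the semaphorin receptor gene *nrp2a* 21.5 and 22.4 CPM, against 4.52 and 4.63 CPM (2.23 ± 0.38, edgeR adjusted p = 0.000529). In the opposite direction, *sema3gb* changed by -2.22 ± 0.50 and the netrin receptor gene *unc5db* by -2.03 ± 0.41. Of 38 cadherins and protocadherins 3 were higher and 2 lower, close to the shares of all genes, among them *cdh18a* (6.27 and 25.9 CPM against 48.9 and 65.9 CPM, -1.82 ± 0.26), *cdh10a* (1.38 ± 0.22) and *pcdh7b* (1.13 ± 0.16).

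Of 33 potassium channel genes 7 were higher (21.2%, against 6.02% of all genes) and 3 lower (9.09%, against 7.19%). The auxiliary subunit gene *kcnab2a* stood out at 168 and 225 CPM in inhibitory cells, against 22.3 and 12.2 CPM in excitatory cells (3.52 ± 0.20, edgeR adjusted p = 7.87e-10), and the inward rectifier genes *kcnj19b* (-1.98 ± 0.40) and *kcnj5* (-1.86 ± 0.45) were lower. Of 30 sodium and calcium channel genes 3 were higher (10.0%), among them *cacna2d3*, and 2 lower (6.67%), *cacna2d2b* (-1.14 ± 0.28) and *cacna1ba* (-0.90 ± 0.28). These shares are near the 6.02% and 7.19% of all genes. *cacna1ba* lost its call in 10 of 16 alternatives.

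Of 53 transmitter receptor genes 8 were higher and 4 lower, most of them rare. Among all genes 6.02% were higher and 7.19% lower, and the share of receptor genes that were lower was near the latter. The AMPA receptor subunit gene *gria1a* had 8 UMIs on the inhibitory side and 0 on the excitatory side, 8-fold higher against a floor of 3 UMIs. The serotonin receptor gene *htr1aa*, with 9 and 0 UMIs, was 9-fold higher on the same floor. These folds take the observed UMIs as exact, so counting error can put the ratio lower. *gria1a* passed in 9 of 14 alternatives and *htr1aa* in 9 of 11, with a change of -0.02 for *htr1aa* without *scxa*. *gria4a* had 16 UMIs against 1, a CPM ratio of 48.0 (counting interval 7.45 to 2010). The nicotinic receptor gene *chrna3* had none on the inhibitory side and 31 on the excitatory side. It was 3.45-fold lower against the same floor and passed in 6 of 11 alternatives. Among 10 genes of the neuropeptide and secretory granule list 3 were higher and 5 lower. *gap43*, which is no neuropeptide gene, is counted among the 5. The granule protein gene *chga* was higher at 51.1 and 96.4 CPM, against 25.2 and 28.3 CPM (1.45 ± 0.19, edgeR adjusted p = 3.85e-05), but changed by 0.12 with *hmx* admission (edgeR adjusted p = 0.854), and *scg2a* had 13 UMIs against 1.

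Stress and activity genes were set apart because the libraries differed in them. *hsp70l* stood at 6900 and 54.5 CPM in inhibitory cells of library 1 and library 2, against 4800 and 27.8 CPM in excitatory cells, so that it was higher on the inhibitory side within each library (0.64 ± 0.17, edgeR adjusted p = 0.0182) by far less than the libraries differed. The call of *hsp70l* was lost in 5 of 16 alternatives, among them the fit without the library term and DESeq2's Wald test. Of 62 heat-shock genes 3 were higher (4.84%, against 6.02% of all genes) and 7 lower (11.3%, against 7.19%). The mitochondrial chaperonin gene *hspd1* was among the lower (-0.85 ± 0.13). Of 20 immediate early genes 6 were higher (30.0%, against 6.02% of all genes) and 1 lower (5.0%, against 7.19%). *fosb*, among the higher, stood at 24.2 and 41.9 CPM, against 9.89 and 17.3 CPM (1.27 ± 0.26, edgeR adjusted p = 0.00256). None of 17 tested passed in thinned cells, and none of 20 without the library term. Among all genes 538 of 6400 and 330 of 9418 passed in these settings, so few of so short a list could pass.

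Transcripts of other tissues moved with the sides in library 2. Fibroblast and tendon markers summed to 17.0 and 583 CPM on the inhibitory side, against 36.5 and 169 CPM on the excitatory side, and 5 of 9 tested were higher. *dcn* was at 0 on the inhibitory side of library 1, as were 6 further members of the list of 14. *col1a2* had 5.38 and 145 CPM, against 5.94 and 29.5 CPM (1.94 ± 0.30, edgeR adjusted p = 0.000190), and in library 1 alone its log2 difference was -0.12. Skin and blood markers summed to 56.5 and 736 CPM, against 36.5 and 1400 CPM, with *krt4* at 4.48 and 328 CPM, against 5.94 and 38.1 CPM. None of 6 muscle genes passed, and 1 of 3 glial and neural crest genes was higher, *foxd3*, which is also counted among the V1 factors. With cells limited to those with at least 3 of 6 neuron markers, *krt4* no longer passed (0.51, edgeR adjusted p = 0.251), *col1a2* changed by 1.48, *slc32a1* by 1.35 and *bhlhe22* by 5.59. At least 3 of 14 fibroblast markers occurred in 0.306% and 2.82% of inhibitory cells, against 0.241% and 1.90% of excitatory cells. The part of these transcripts in the other results was not tested beyond these values.

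The same contrast was then set beside that of subset 1, whose cells had at least 1 UMI of its 6 marker genes and none of *esrrb*, *scxa* and *svild*, and were split by the same state genes into 363 inhibitory cells (178 and 185) and 430 excitatory cells (249 and 181). The 2 inhibitory sides differed in admission. An *hmx* UMI was present in 154 of 178 and 123 of 185 inhibitory cells of subset 1, but in 121 of 327 and 116 of 354 of subset 2. The question was which genes differ between inhibitory and excitatory state by another amount in subset 2. The difference of the change was tested directly, in the same fit, and 808 of 9418 genes (8.58%) passed at an edgeR adjusted p under 0.05, with 357 positive (3.79%) and 451 negative (4.79%). A positive value means a change that was more positive in subset 2. With both inhibitory sides admitted by *hmx2* and *hmx3a* alone, 934 of 7999 genes passed, 633 of them shared with the 808. By *slc6a5* alone 445 of 9424 passed, with 399 shared. The part of admission in single differences was not tested. None of the 6 regulators named as higher passed this test, nor did *slc32a1*, whose log2 fold changes were 1.35 ± 0.11 in subset 2 and 1.52 in subset 1 (difference -0.16, adjusted p = 0.601). A difference that did not pass is not evidence of an equal change.

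Among the regulators named as lower, 7 of 18 had a positive difference and none a negative one, whereas the 10 candidates had 4 positive and 2 negative differences. The candidate *ebf3a* did not pass in subset 2 (-0.22 ± 0.14), whereas in subset 1 it stood at 29.5 and 29.3 CPM in inhibitory cells, against 375 and 480 CPM in excitatory cells (-3.86 ± 0.21), a difference of 3.64 ± 0.27 (edgeR adjusted p = 2.81e-07). *ebf1a*, of the regulators named as lower, changed by -0.62 in subset 2 and -3.33 in subset 1 (difference 2.72 ± 0.30, edgeR adjusted p = 1.45e-05), and *pou3f2b* by -0.45 and -2.37 (difference 1.92 ± 0.24, edgeR adjusted p = 5.22e-05). The candidate *skor2* was lower in both, by -3.20 in subset 2 and -5.22 in subset 1 (difference 2.02, edgeR adjusted p = 0.00602).

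*evx1* went the other way. Its levels in subset 1 were 124 and 101 CPM in inhibitory cells, against 149 and 133 CPM in excitatory cells (-0.36 ± 0.25), so that the decrease was larger in subset 2 by -1.26 ± 0.33 (edgeR adjusted p = 0.0212). *neff1* also decreased more in subset 2 (difference -2.69 ± 0.39, edgeR adjusted p = 0.000235), and *trhra*, with no UMI in inhibitory cells of subset 2, stood at 38.3 and 40.0 CPM in inhibitory cells of subset 1, against 53.7 and 101 CPM in excitatory cells. *esrrga*, an estrogen-related receptor gene, was at 263 and 362 CPM, against 113 and 150 CPM in subset 2 (1.24 ± 0.11), and at 203 and 227 CPM, against 5.07 and 10.3 CPM in subset 1 (4.82 ± 0.24). Its levels lay farther apart between the 2 excitatory sides than between the 2 inhibitory sides, and the difference of the change was -3.59 ± 0.29 (edgeR adjusted p = 6.01e-07).

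The decrease of pan-neuronal and energy genes also differed between the subsets. *gap43* changed by -1.49 in subset 2 and by 0.15 in subset 1, where it stood at 2370 and 1910 CPM, against 1860 and 1940 CPM (difference -1.63 ± 0.17, edgeR adjusted p = 7.49e-06). Of 17 pan-neuronal genes 5 had a negative difference and none a positive one, and of 90 oxidative phosphorylation genes 35 had a negative and none a positive one. Among all genes 4.79% had a negative difference. *cycsb* changed by -0.83 in subset 2 and 0.85 in subset 1 (difference -1.69 ± 0.16, edgeR adjusted p = 2.80e-06). Median depth differed between the sides by less in subset 1, at 3811 and 4102 UMIs in inhibitory cells, against 3865 and 4401 UMIs in excitatory cells. The part of depth in the difference was not tested. With cells thinned and gated again, 285 genes passed in all. Hox genes ran in the opposite sense, with 7 of 37 positive, against 3.79% of all genes, and none negative. An example is *hoxb5b* (0.87 in subset 2 and -1.08 in subset 1, difference 1.96 ± 0.29, edgeR adjusted p = 0.000352). Within subset 2 this list had no stable direction, and *hoxb5b* lost its call there in 5 of 16 alternatives.

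**Figure D5:**
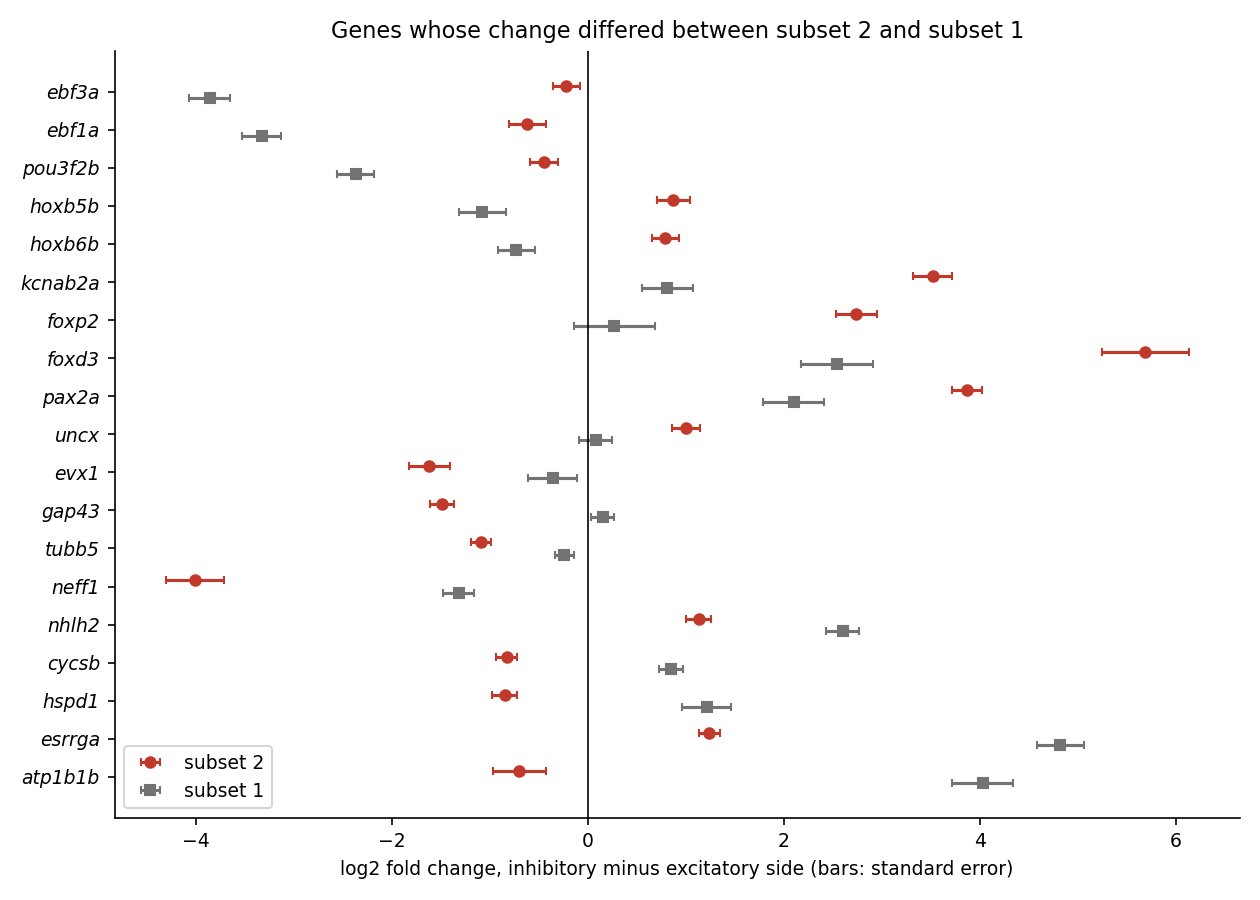
Log2 fold changes between the inhibitory and excitatory sides in subset 2 (red circles) and subset 1 (grey squares) for 19 genes whose difference of change passed, chosen after their values were seen, with bars for the standard error. *ebf3a* lies at -0.22 in subset 2 and -3.86 in subset 1, and *gap43* at -1.49 and 0.15.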

How the data were processed

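Zebrafish trunks were dissociated by the authors at 48 h, and cells with EGFP were sorted into 2 droplet (10x Genomics) libraries. The deposited values are UMI counts per gene and cell, whole numbers without normalization, made with Cell Ranger 4.0.0 per the labels. Cells with 500 to 2500 genes, at most 12000 UMIs and at most 6% mitochondrial UMIs were kept. Multiplets were removed only by these upper limits, beside the doublet gates of the sort, and no doublet caller was run. UMIs were summed per library and class (at least 20 cells) and the 8 sums were fitted under R 4.3.3 by edgeR 4.0.16, with class and library as terms, TMM scaling and the filter filterByExpr. Its two-sided quasi-likelihood test gave the p-values. Both sides of a library come from the same pool of embryos, which pairs them. The 16 gate genes were left out. The standard error of a log2 fold change is its size over the square root of F. P-values were adjusted by Benjamini-Hochberg over all genes tested. For changes within 1 library, 1 CPM was added to each level. Ratios of few UMIs pool the libraries and have exact 95% intervals that cover counting error only.

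The members, the gene lists and the tests were chosen with earlier results of these data known. Named genes were *evx1*, the members of the transmitter, candidate and regulator lists, the 12 highest and 12 lowest changes among genes past the threshold with at least 50 UMIs, the same sign in both libraries and no provisional symbol, at most 4 members past the threshold from each other list, and the 5 most positive and 5 most negative differences between the subsets. The values of 1 gene of these lists are not reported here. Genes under older symbols were matched by identifier, for example *skor2* (zgc:153395) and *neff1* (zgc:65851). Background cells had UMIs of at least 3 of 6 fibroblast genes and none of *elavl3*, *elavl4* and *snap25a*. Fits were also run on simulated data with the same fixed spread for all genes, which is simpler than the real data and cannot show how the fits behave on them. Alternatives were other normalizations, tests, filters, gates, depths and cell limits.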

Additional observations from a re-analysis of the deposited data

Results flagged for a closer look

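The change between the inhibitory and the excitatory side differed between subset 2 and subset 1, by the direct test of that difference (edgeR adjusted p under 0.05), for several of the genes singled out by name or by size. Differences are log2 fold changes of subset 2 minus those of subset 1. The negative ones were -7.77 for *trhra*, -4.73 for *atp1b1b*, -3.80 for *chodl*, -3.65 for *phlda3*, -3.59 for *esrrga*, -2.69 for *neff1*, -2.53 for *nefmb*, -1.26 for *evx1* and -0.63 for *gphnb*. The size for *trhra* leans on a fitted change of -8.74 in subset 2, where inhibitory cells had no UMI. In cells thinned and gated again its change in subset 2 was -2.4 (edgeR adjusted p = 0.0174). *atp1b1b*, a sodium pump subunit gene, stood at 111 and 116 CPM in inhibitory cells of subset 1, against 8.11 and 5.13 CPM in excitatory cells, and at 10.8 and 16.1 CPM, against 23.2 and 21.0 CPM, in subset 2.

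The positive differences were 0.79 for *scrt1a*, 0.85 for *zfhx3b*, 0.91 for *uncx*, 0.98 for *scrt2*, 1.38 for *nr2f5*, 1.92 for *uncx4.1*, 1.92 for *pou3f2b*, 2.02 for *skor2*, 2.72 for *ebf1a*, 3.64 for *ebf3a*, 6.33 for *ahnak*, 6.36 for *drd3*, 6.69 for *olig4* and 7.74 for *col5a2a*. *olig4* changed by only 0.35 in subset 2, and its difference rests on a change in subset 1 with a wide error (-6.34 ± 1.81). The change of *ahnak* in subset 1 was -3.95 ± 1.35. In subset 2 *ahnak* stood at 0.0 and 41.9 CPM in inhibitory cells, against 0.848 and 6.59 CPM in excitatory cells, and *col5a2a* at 0.896 and 28.0 CPM, against 0.848 and 7.56 CPM. In subset 1 *col5a2a* had UMIs only on the excitatory side of library 2. Its change there (-6.05 ± 2.09) and the difference of 7.74 therefore lean on zeros and on 1 library. In subset 2 its call was lost in 6 of 10 alternatives. Fibroblast markers were also higher in library 2, and the part of those cells was not tested. *drd3* changed by 1.76 on the whole inhibitory side, with a fitted change of -5.31 when that side was admitted by *hmx2* and *hmx3a* alone (edgeR adjusted p = 0.185).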

How the results depend on the processing

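The count of genes that differed in subset 2 (1244) stayed within 1.5 times under 13 of 16 alternatives, from 861 to 1534. It was 330 without the replicate block (the library term left out), 427 with DESeq2's Wald test and 538 in cells thinned to 2000 UMIs and gated again. The count for the difference between the subsets (808) was 141 without the replicate block, 326 with DESeq2's Wald test, 445 with the inhibitory side admitted by *slc6a5* alone and 285 in thinned cells, and from 663 to 960 otherwise. The higher share of the calls in subset 2 (45.6%) ran from 36.4% without a filter on low counts (559 higher and 975 lower) to 57.2% without upper limits (767 and 575), and the median change of all genes from -0.07 to 0.02.

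Of 124 named genes past the threshold, 54 passed in every alternative that tested them. The fewest passed without the library term (63 of 124) and in thinned cells (65 of 95 tested). Fitted changes turned sign for *drd3* (-5.31, *hmx* admission), *htr1aa* (-0.02, without *scxa*), *postnb* (-1.13, DESeq2) and *hbae3* (0.26 with at least 2 state UMIs, 0.22 with at least 2 subset UMIs and 0.46 in thinned cells). Over library 2 alone and library 1 alone, for which no test was possible, changes were on both sides of 0, or at 0, for *ahnak* (2.50 and -0.89), *col1a2* (2.26 and -0.12), *col1a1b* (1.84 and -0.03), *postnb* (1.97 and -2.47), *krt4* (3.08 and -0.34), *hbbe2* (-2.09 and 0.00) and *hbae3* (-2.45 and 0.28). The causes were not tested. With 2 libraries, the depth of 678628 to 4099792 UMIs per sum limits rare genes most, and cells of unknown genotype limit both sides as models of a mutant state.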
